A study of Mus musculus with 21 samples.

Results

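Oocytes of old mice that had received LRP1high cells sorted from human mesenchymal stem cells of the umbilical cord (UC-MSCs) were compared with oocytes of old mice that had received unsorted UC-MSCs. The members were the 3 Aged + LRP1high and the 2 Aged + Unsorted oocyte libraries, chosen by their labels, 5 of the 12 oocyte libraries and of the 21 libraries of the series. Both groups came from female mice of 18 months whose ovaries had been injected with UC-MSCs, and oocytes were collected 3 weeks later, so the comparison asks what a sort on LRP1 changes among treated mice, not what treatment changes. The remaining oocyte libraries were 3 Young and 2 Aged without cells and 2 Aged + LRP1low, and they entered the gene filter and the estimate of the spread, with their levels given beside some genes. LRP1 is a large endocytic receptor of the LDL receptor family, and the LRP1high cells were the sorted fraction with the most of it on their surface. The labels call the libraries biological replicates, but not how many oocytes, mice or cell donors went into each, and all p-values measure only the spread between these libraries. Fewer oocytes in a library and less of an RNA per oocyte cannot be told apart.

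A fully grown oocyte makes little new RNA and lives on messages stored during growth. These stored messages encode the egg coat, the factors that hold and resume meiosis, the spindle and cohesin proteins that segregate chromosomes, and the ribosomal and mitochondrial proteins handed to the embryo. Mitochondria are inherited from the oocyte, and their own genome encodes rRNAs, tRNAs and some subunits of the respiratory chain. Changes in these groups have long been studied in oocyte aging.

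Levels are given as FPKM, the authors' fragments per gene scaled by gene length and library total, and differences as Aged + LRP1high minus Aged + Unsorted on the scale of log2(FPKM + 1), which understates the change of low genes. No gene passed the test. Of 28004 genes tested with limma and Benjamini-Hochberg adjustment, 0 were higher and 0 were lower by more than 1.5-fold with an adjusted p under 0.05 (0% in either direction), and the smallest adjusted p was 0.568. Without adjustment, 68 genes (0.243%) were higher and 713 (2.55%) lower in Aged + LRP1high. In 576 genes (2.06%) every Aged + LRP1high library lay above both Aged + Unsorted libraries, and in 2375 (8.48%) every one lay below both. These positions, called non-overlapping below, describe the 5 libraries and are not calls.

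Among the 4878 genes with a mean of at least 10 FPKM over the 5 libraries, 5.08% were non-overlapping and higher and 21.1% non-overlapping and lower, and the median difference was -0.82. Without adjustment 1.00% of these genes were higher and 6.23% lower. This shift depended on the scale. The median of the same genes was -0.63 on TPM, -0.41 after scaling by median ratios and -0.12 after quantile normalization, and it was -0.26 without the third Aged + LRP1high library and -1.23 without Aged + Unsorted replicate 1. Without the latter, 47.5% of these genes and 27.6% of all genes tested were non-overlapping and lower. The unadjusted counts followed it, with 139 genes higher and 263 lower after quantile normalization, and 41 higher and 90 lower after median ratio scaling. The counts of gene groups below are to be read against 2.06% higher and 8.48% lower of all genes tested, and against 5.08% and 21.1% of genes of at least 10 FPKM. Of the genes tested, 16844 had a mean under 1 FPKM over the 5 libraries and passed the filter through the other oocyte libraries. Of the 6282 genes with a mean from 1 to 10 FPKM, 1.67% were non-overlapping and higher and 15.1% lower. The lower share over all genes tested is thus below that of genes of 1 FPKM or more.

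The 5 libraries differed more within groups than between some of them. Depth was 0.984 and 2.96 aligned gigabases in Aged + Unsorted and 3.15, 2.29 and 2.72 in Aged + LRP1high. In the same order, 8177 and 11916, then 11026, 8071 and 4525 genes reached 1 FPKM. The third Aged + LRP1high library stood apart by missing genes. Of 2404 genes with at least 10 FPKM in each of the other 4 libraries, 417 were under 1 FPKM in it, 62 of them listed at 0, against at most 45 genes of this kind in any other library. The pair most alike was Aged + Unsorted replicate 2 and Aged + LRP1high replicate 1, which belong to different groups (Spearman's rho across genes = 0.83), whereas rho was 0.61 within Aged + Unsorted and 0.50 to 0.57 within Aged + LRP1high.

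All 5 libraries carried the oocyte's defining messages. The median FPKM of 10 oocyte markers was 647 and 1001 in Aged + Unsorted and 799, 687 and 161 in Aged + LRP1high. Gdf9, a growth factor that the oocyte secretes, was at 1467 and 1815 against 1181, 1427 and 483 FPKM, and it was the one marker whose groups did not overlap. H1foo, the oocyte's linker histone, was at 1870 and 2789 against 2719, 1490 and 575 FPKM. Dppa3, which protects the maternal genome's methylation, was at 1390 and 3949 against 1454, 1521 and 1054 FPKM. The low values of these markers came from the third Aged + LRP1high library, and the median difference over the list moved from -0.76 to -0.26 without it. Without Aged + Unsorted replicate 1 it was -1.07, and 9 of the 10 markers were non-overlapping and lower. Outside the 5 libraries Gdf9 was at 2.17, 65.1 and 626 FPKM in Young and 9.04 and 1245 in Aged. In Aged + LRP1low it was at 9.66 and 27.2 FPKM. Most of these libraries thus held little of this oocyte message, and they entered the shared spread (SE of the Gdf9 difference 2.13). Aged + LRP1low replicate 1, with 47920 genes at 1 FPKM or more, also entered the gene filter.

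Markers of other ovarian cells were far below those of the oocyte but not absent. Of the granulosa and cumulus markers tested 3 of 8 were non-overlapping and lower, and of luteal and theca markers 2 of 5. In both lists 0 were higher, beside 8.48% lower and 2.06% higher of all genes tested. Of 10 granulosa and cumulus genes 8 were tested, with list medians of 1.05 and 0.962 FPKM in Aged + Unsorted and between 0 and 0.183 in Aged + LRP1high. Inha, the inhibin alpha subunit of granulosa cells, was at 8.49 and 9.72 against 0.798, 1.34 and 0 FPKM (difference -2.64, SE 0.73, unadjusted p 0.00395 by limma). Foxl2, a granulosa transcription factor, and Inhba were the other non-overlapping members, both under 3 FPKM in every library, while Fshr was below the filter. Ptgfr, the prostaglandin F receptor of luteal cells, was at 2.96 and 1.39 against 0, 0.125 and 0.0342 FPKM (unadjusted p 0.0285). Nr5a2, of the granulosa list, overlapped at 7.74 and 9.13 against 8.26, 2.67 and 0.234 FPKM. None of the tested stromal (5), immune (6), red blood cell (2) or endothelial (4) markers was non-overlapping. C1qb, of the immune list, was at 0 and 5.74 against 11.0, 14.9 and 0 FPKM. The part of follicle cell RNA in the differences was not tested.

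The genes with the largest differences in the higher direction covered several functions. They are the 10 largest of 34 protein-coding genes that had an unadjusted p under 0.05, no overlap and a mean of at least 10 FPKM. Slc39a1 (chr3:90248172-90253612, GRCm38), which imports zinc into the cell, was at 0 and 1.98 FPKM in Aged + Unsorted and 70.0, 89.5 and 49.6 in Aged + LRP1high (difference 5.32, SE 1.42, unadjusted p 0.0032). It was also at 0 and 4.29 in the Aged and at 2.10, 92.6 and 136 in the Young libraries. The lowest Aged + LRP1high library thus stood at 49.6 FPKM, against at most 4.29 over the 4 Aged and Aged + Unsorted libraries, while the Young libraries ranged from below to above it. The Young and Aged libraries lowest in Slc39a1, replicate 1 of each, were also low in Gdf9, at 2.17 and 9.04 FPKM.

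Genes of chromatin and transcription were among them. Atad2 (chr15:58094044-58135082), an ATPase with a bromodomain, was at 1.51 and 14.9 against 187, 163 and 566 FPKM (difference 5.36, SE 1.35, unadjusted p 0.00222). Gatad1, a zinc finger protein found with histone marks of active genes, was at 1.96 and 10.1 against 96.7, 82.1 and 199 FPKM (difference 4.36, SE 1.15). Zmynd8, a reader of modified histones, was at 0.409 and 2.23 against 25.2, 27.7 and 41.2 FPKM (difference 3.89, SE 1.24). In each of these genes the highest Aged + Unsorted library was the second, the deeper of the pair. That it lay below the lowest Aged + LRP1high library was a condition of the choice.

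Btg2, an antiproliferative protein that recruits the enzymes that shorten poly(A) tails, was at 0 and 6.85 against 125, 41.7 and 33.5 FPKM (difference 4.35, SE 1.2, unadjusted p 0.00406). Musk, known as the receptor kinase of the neuromuscular junction, was at 17.1 and 42.7 against 422, 182 and 740 FPKM (difference 3.78, SE 1.55, unadjusted p 0.0327). Col22a1, a collagen of tissue junctions, was at 0.0731 and 1.49 against 10.9, 28.2 and 33.2 FPKM (difference 3.8, SE 0.79, unadjusted p 0.000564). Col22a1 had the smallest unadjusted p of the higher genes named, and its Aged libraries, at 7.22 and 6.07 FPKM, lay between the groups.

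The other 3 act in the endoplasmic reticulum, the mitochondrion and the actin skeleton. Ormdl2, which restrains sphingolipid synthesis, was at 0 and 1.29 against 37.4, 12.8 and 44.2 FPKM. Opa3, a protein of the mitochondrial membrane, was at 0.0905 and 6.52 against 45.6, 34.8 and 94.7 FPKM. Twf1, the actin-binding twinfilin, was at 2.2 and 15.3 against 104, 51.0 and 328 FPKM. Their differences were 4.25 (SE 1.48), 4.24 (SE 1.09) and 4.08 (SE 1.29), with unadjusted p of 0.0153, 0.0025 and 0.00897. Ormdl2, Twf1, Gatad1, Zmynd8, Opa3 and Col22a1 overlap other annotated genes. Whether reads were counted by strand is not given in the sources used here, so reads of the overlapping partners cannot be told apart. The same holds for other genes named below, among them Cdc20 (with Elovl1), Sgo2a (Kctd18), Ndufa3 (Tfpt) and Itgae (Haspin).

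**Figure D1:**
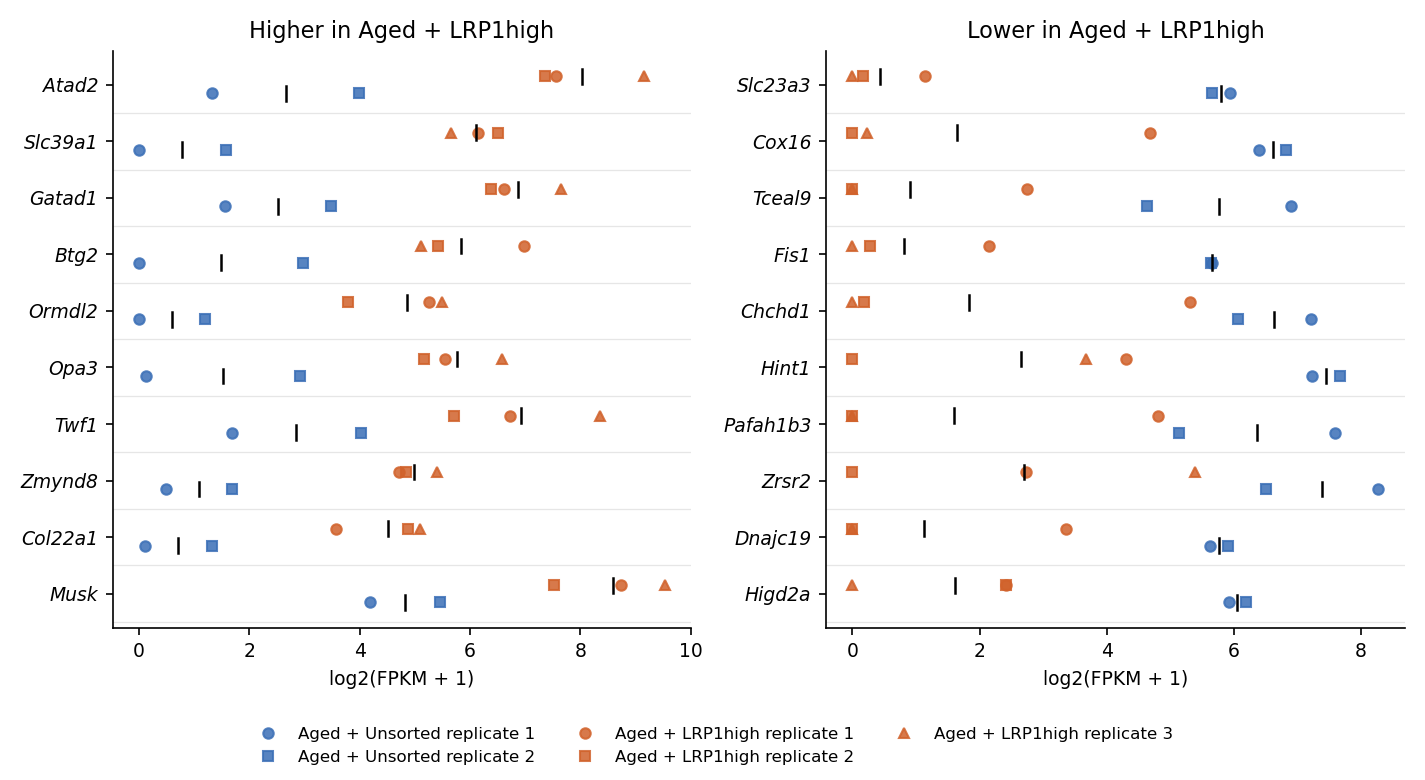
Levels of the 10 genes with the largest difference in each direction, as log2(FPKM + 1) in each library (symbols) with the mean of each group (black bars). They were taken among protein-coding genes with an unadjusted p under 0.05 by limma, no overlap and a mean of at least 10 FPKM. By this choice the 3 Aged + LRP1high libraries of every gene lie on 1 side of the 2 Aged + Unsorted libraries. Among the lower genes the third and second Aged + LRP1high libraries often sit at 0.

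The largest differences in the lower direction, 10 of 188 protein-coding genes that met the same criteria, included 5 genes of mitochondrial proteins. Fis1 (chr5:136953275-136966234), which recruits the mitochondrial fission machinery, was at 49.1 and 49.1 FPKM in Aged + Unsorted and at 3.45, 0.210 and 0 in Aged + LRP1high (difference -4.84, SE 1.17, unadjusted p 0.00165). Cox16, an assembly factor of cytochrome c oxidase, was at 83.4 and 112 against 24.7, 0 and 0.178 FPKM (difference -4.97, SE 1.72). Higd2a, which helps respiratory supercomplexes to assemble, was at 59.4 and 72.1 against 4.32, 4.35 and 0 FPKM (difference -4.44, SE 1.24). The Aged + Unsorted pair was close together in all 3 genes, and the Aged + LRP1high libraries were spread from 0 upward.

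Dnajc19, part of the motor that pulls proteins into the mitochondrion, was at 48.1 and 59.0 against 9.24, 0 and 0 FPKM (difference -4.64, SE 1.40). Chchd1, a subunit of the mitochondrial ribosome, was at 147 and 65.6 against 38.5, 0.139 and 0 FPKM (difference -4.80, SE 2.08). Cox16, Dnajc19 and Chchd1 overlap other annotated genes. In the Young libraries Chchd1 was at 3.95, 0 and 60.0 FPKM, a spread as wide as that of the Aged + LRP1high libraries. Young replicates 1 and 2, which held the low values, were also low in Gdf9.

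Slc23a3 (chr1:75125541-75133890), a relative of the vitamin C transporters, had the largest difference and the smallest unadjusted p of the lower protein-coding genes. It was at 60.3 and 49.1 against 1.2, 0.120 and 0 FPKM (difference -5.36, SE 0.92, unadjusted p 0.000118). The Young libraries had 0 to 2.82 FPKM, the Aged libraries 4.42 and 38.8 and the Aged + LRP1low libraries 3.46 and 4.50. The Aged + Unsorted pair was thus the highest of these groups. The other lower genes were Hint1, a nucleotide hydrolase, at 149 and 202 against 18.8, 0 and 11.7 FPKM, Zrsr2, a factor of the minor spliceosome, at 308 and 90.0 against 5.61, 0 and 41.0, Pafah1b3, a catalytic subunit of platelet-activating factor acetylhydrolase, at 192 and 34.1 against 26.8, 0 and 0, and Tceal9, at 118 and 23.7 against 5.69, 0 and 0. The second Aged + LRP1high library was listed at 0 for all 4 of them.

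A nuclear gene annotated as rRNA and both mitochondrial rRNAs were chosen after their values were seen. CT010467.1 (chr17:39846353-39848827), annotated as rRNA and overlapping Gm42418 and AY036118, was at 29122 and 9994 FPKM in Aged + Unsorted and at 657, 990 and 369 in Aged + LRP1high (difference -4.78, SE 1.00, unadjusted p 0.000577). The Young libraries had 288 to 713 FPKM and the Aged libraries 710 and 8265. The Aged + LRP1low libraries had 569 and 468 FPKM. The Aged + LRP1high libraries thus lay near the range of the Young and Aged + LRP1low libraries and of 1 Aged library. Both Aged + Unsorted libraries lay above every other oocyte library.

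Both rRNAs of the mitochondrial genome were non-overlapping and lower. mt-Rnr1, the small mitochondrial rRNA, was at 1139 and 1088 against 217, 332 and 207 FPKM (difference -2.17, SE 0.74, unadjusted p 0.014). mt-Rnr2, the large mitochondrial rRNA, was at 1817 and 2269 against 340, 388 and 319 FPKM (difference -2.54, SE 0.76, unadjusted p 0.00676). The lowest Aged + Unsorted library was well above the highest Aged + LRP1high library in both rRNAs, and the order was the same on TPM and after quantile and median ratio scaling.

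Of the 13 protein genes of the mitochondrial genome, 7 were non-overlapping and lower and 0 higher, beside 21.1% and 5.08% of genes of at least 10 FPKM, and the list's median difference was -1.51 beside -0.82. mt-Nd2, a complex I subunit, was at 272 and 423 against 147, 70.2 and 52.9 FPKM (difference -2.04, SE 0.87, unadjusted p 0.039). mt-Co2, a subunit of cytochrome c oxidase, was at 242 and 691 against 174, 232 and 141 FPKM, and mt-Atp6, of ATP synthase, overlapped at 147 and 989 against 755, 308 and 59.5. mt-Cytb, the cytochrome b of complex III, went the other way with a difference of 0.52 and overlapping groups. The list's median was -1.23 on TPM, -1.05 after quantile and -1.04 after median ratio scaling, with 6 lower members each, beside -0.63, -0.12 and -0.41 over genes of at least 10 FPKM. Of 22 mitochondrial tRNAs only mt-Ts1 and mt-Te were non-overlapping, both lower, and the tRNA median turned from -0.60 to 1.14 without Aged + Unsorted replicate 1, with 7 tRNAs then non-overlapping and higher.

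**Figure D2:**
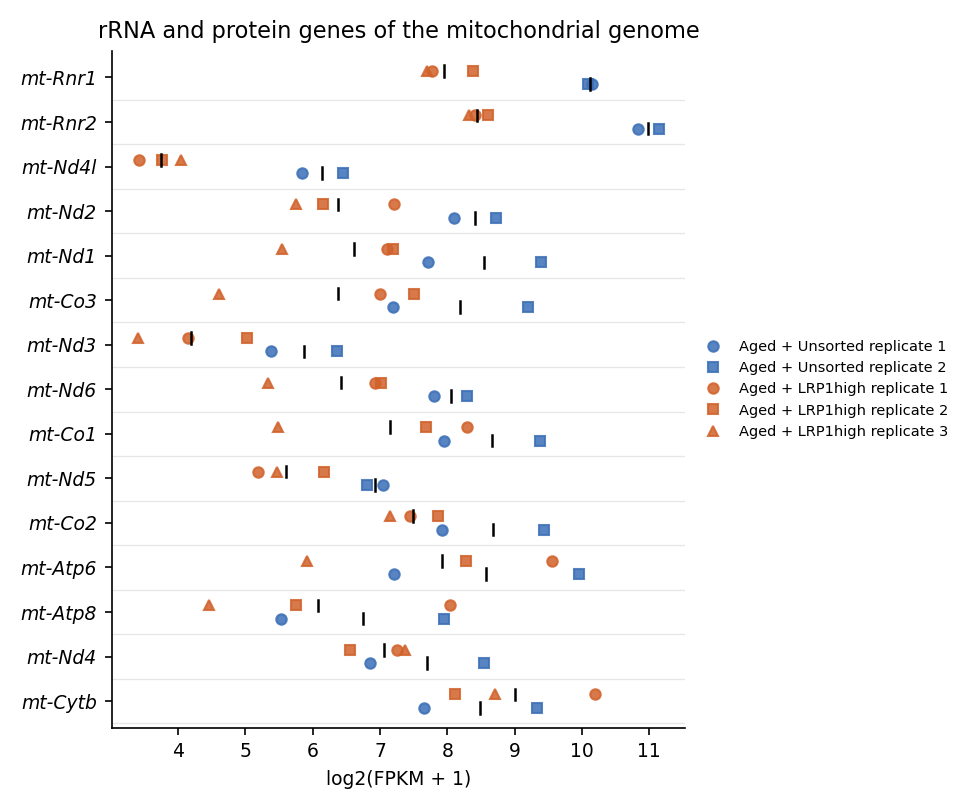
Levels of the 2 rRNA and 13 protein genes of the mitochondrial genome as log2(FPKM + 1) in each library (symbols), with the mean of each group (black bars). Both rRNAs show the 3 Aged + LRP1high libraries close together and below both Aged + Unsorted libraries, and mt-Cytb has a higher Aged + LRP1high mean with overlapping libraries.

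The share of TPM on protein-coding genes moved with the same comparison. It was 82.3% and 86.9% in Aged + Unsorted and 90.9%, 91.7% and 93.5% in Aged + LRP1high. The mitochondrial genome took 1.58% and 2.16% against 1.09%, 0.798% and 0.707%. The labels give polyA RNA as the molecule, and mitochondrial and nuclear rRNA carry no long poly(A) tail. The part of poly(A) selection in these values was not tested.

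Nuclear genes of the respiratory chain held no call. Of 86 members 83 were tested, and 25 were non-overlapping and lower and 0 higher, all 25 among the 76 members of at least 10 FPKM, beside 21.1% and 5.08% of all genes at that level. The median difference was -1.30 over the members tested and -1.37 over those of at least 10 FPKM, beside -0.82. Sdha, the catalytic subunit of succinate dehydrogenase, was at 72.4 and 23.3 against 13.2, 0.863 and 0 FPKM (difference -3.82, SE 1.26, unadjusted p 0.0114). The complex I subunits Ndufa13, at 24.9 and 40.1 against 17.3, 0 and 0 FPKM, and Ndufa3, at 108 and 73.4 against 4.54, 56.0 and 0, had unadjusted p of 0.0257 and 0.0471. The 3 most abundant members, Cox7c, Uqcrh and Cox6a1, overlapped between groups, with Uqcrh at 527 and 530 against 238, 692 and 231 FPKM. Without the third Aged + LRP1high library the list median was -0.67, beside -0.26 over all genes of at least 10 FPKM.

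Mitochondrial ribosomal proteins gave 13 lower and 1 higher of 77 tested of 78 members, and 10 and 1 among the 52 of at least 10 FPKM, close to the share of all such genes. Mrpl52 was at 72.3 and 26.6 against 3.47, 8.46 and 0 FPKM and Mrps9 at 16.6 and 10.4 against 9.22, 0.327 and 1.09, with unadjusted p of 0.0392 and 0.0473. Of 13 genes of mitochondrial dynamics and import, 4 were non-overlapping and lower, Fis1 among them, beside 8.48% of all genes tested. Dnm1l, the GTPase that severs the mitochondrion, was at 65.7 and 44.0 against 25.4, 11.3 and 1.24 FPKM. The list's median was -0.97, and it was 0.00 after quantile normalization, where that of all genes tested was -0.02.

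Of the lists of oocyte functions, the cytosolic ribosomal proteins had the most members in a single direction. Of 87 members 86 were tested, and 40 were non-overlapping and lower and 1 higher, 37 and 1 of them among the 77 of at least 10 FPKM, beside 21.1% and 5.08% of all genes at that level. The list's median difference was -1.41, with 0 members at an unadjusted p under 0.05 and a fold over 1.5 in either direction, against 2.55% lower among all genes tested. The list's median FPKM was 108 and 139 in Aged + Unsorted and 50.9, 78.9 and 13.8 in Aged + LRP1high, so every Aged + LRP1high library lay below both. On TPM, after quantile normalization and after median ratio scaling, 31, 30 and 29 members were lower and 1, 2 and 2 higher. The median difference of the list was then -1.18, -0.76 and -0.95, beside -0.63, -0.12 and -0.41 over genes of at least 10 FPKM.

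Messages of ribosomal proteins start at a run of C and T that controls their translation, so the promoters are shown around the annotated start. RefSeq (GRCm38.p6) held 76 promoters of 64 ribosomal protein genes. The 4 most abundant non-overlapping lower members with a C or T run of at least 8 bases that reaches within 6 bases of the start, and the 2 most abundant with no run of 5, were taken, after their values were seen. Each line runs from 40 bases before to 20 after the start, 5′ to 3′ on the gene's strand, with the run in capitals.
Rps24, chr14:24490638-24490697, plus strand: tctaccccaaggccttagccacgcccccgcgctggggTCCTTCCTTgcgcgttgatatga
Rps26, chr10:128626487-128626546, minus strand: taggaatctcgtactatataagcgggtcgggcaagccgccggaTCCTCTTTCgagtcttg
Rps27, chr3:90213629-90213688, minus strand: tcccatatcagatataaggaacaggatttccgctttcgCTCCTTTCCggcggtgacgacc
Rps9, chr7:3704001-3704060, plus strand: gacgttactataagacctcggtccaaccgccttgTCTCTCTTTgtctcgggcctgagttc
Rpl41, chr10:128549149-128549208, minus strand: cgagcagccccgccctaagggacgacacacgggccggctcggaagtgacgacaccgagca
Rps13, chr7:116334171-116334230, minus strand: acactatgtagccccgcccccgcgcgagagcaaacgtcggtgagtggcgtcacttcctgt

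Rps24, whose run is 9 bases long, was at 369 and 336 against 137, 208 and 4.47 FPKM (difference -2.71, SE 1.97). Rps26 was at 343 and 318 against 50.5, 116 and 9.53 FPKM, and Rps27 at 266 and 335 against 51.1, 43.3 and 42.9. Rpl41 and Rps13, with no such run at the RefSeq start, were at 783 and 714 against 185, 646 and 129, and at 528 and 433 against 181, 264 and 24.8 FPKM. All 6 were picked among the lower members, so their position is a description of the choice.

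Runs of at least 8 bases were found in 35.5% of the ribosomal protein promoters and in 10.2% of all 32851 promoters, searched on the gene's strand. Among tested ribosomal protein genes, 13 of 24 with such a run were non-overlapping and lower, with a median difference of -1.84, and 15 of 39 without it, with a median of -1.32. A match describes letters in a window and is not a start site measured here.

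**Figure D3:**
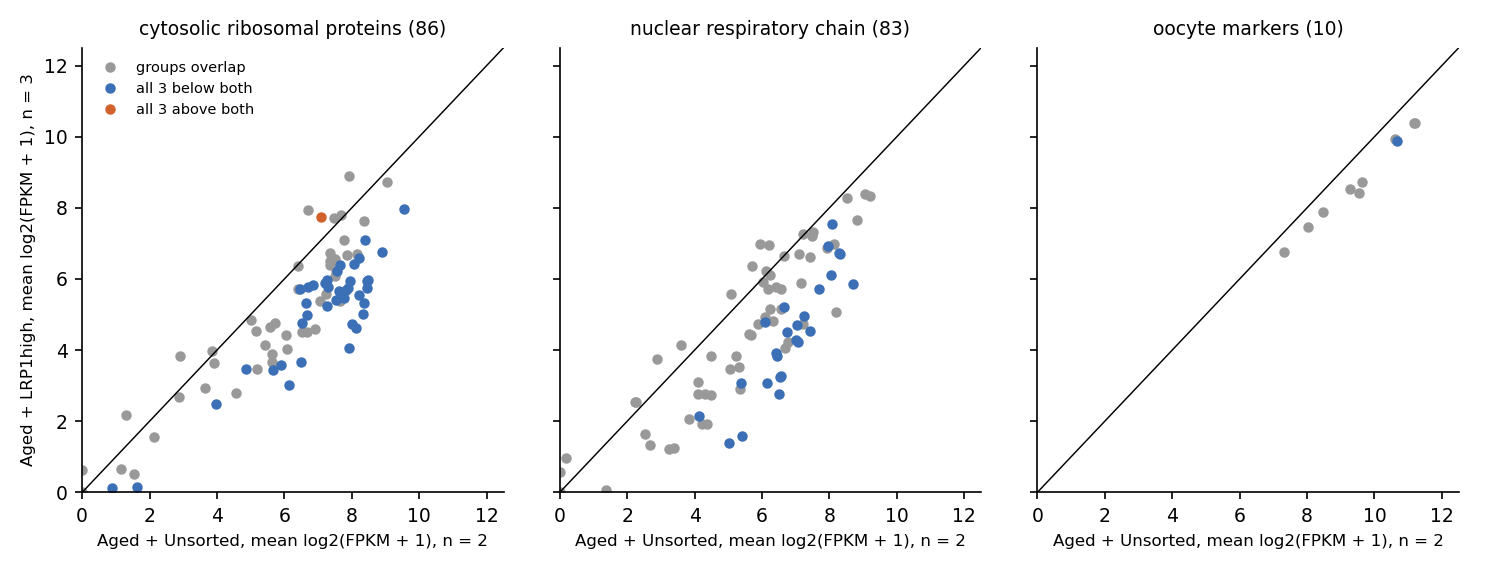
Mean log2(FPKM + 1) of each member of 3 gene lists in Aged + Unsorted (horizontal, 2 libraries) and Aged + LRP1high (vertical, 3 libraries), with the line of equal level. Of 86 ribosomal protein genes 40 and of 83 respiratory chain genes 25 have all 3 Aged + LRP1high libraries below both others (blue), against 1 of 10 oocyte markers.

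Short messages made up these lists, and position moved with length. The longest annotated transcript had a median of 1045 bases in ribosomal protein genes and 971 in respiratory chain genes, against 2975 over 4265 coding genes of at least 10 FPKM. Among coding genes of up to 500 bases 56.5% (13 of 23) were non-overlapping and lower, against 26.9% from 500 to 1000 bases and 22.8% from 1000 to 2000. The lower share was 18.0% from 2000 to 3000 bases, 20.4% from 3000 to 5000 and 18.0% above 5000, so it did not fall steadily. Without the third Aged + LRP1high library it was 20.9%, 23.9% and 23.1% in these longer classes and 56.5% in the shortest. The share that was non-overlapping and higher went from 0% and 0.312% in the 2 shortest classes to 11.4% above 5000 bases. The part of transcript length in the differences of the lists was not tested.

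**Figure D4:**
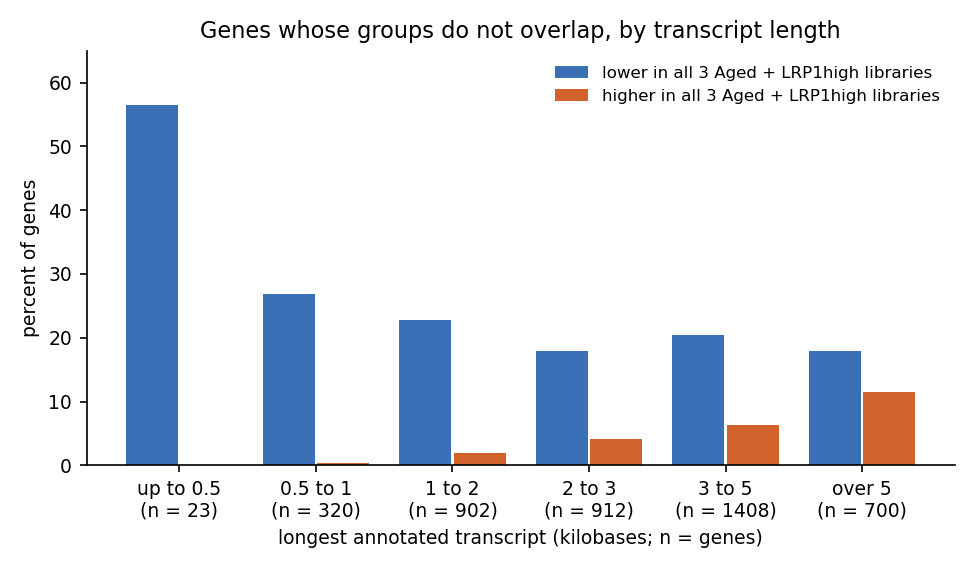
Share of protein-coding genes with a mean of at least 10 FPKM that were lower (blue) or higher (orange) in all 3 Aged + LRP1high libraries, by the length of the longest annotated transcript. The lower share is 56.5% in the shortest class and 18.0% in the longest, and the higher share climbs from 0% to 11.4%.

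Genes that carry out meiosis were placed much like other genes. Of 22 genes of the meiotic cell cycle, 4 were non-overlapping and lower and 0 higher, all among the 18 of at least 10 FPKM, beside 21.1% and 5.08% of genes at that level. Cdc20, which activates the anaphase-promoting complex, was at 56.9 and 58.1 against 29.0, 8.32 and 0.303 FPKM (difference -3.03, SE 1.3, unadjusted p 0.0402). Pttg1, the securin that Cdc20 delivers for destruction, overlapped at 2235 and 2940 against 3796, 1346 and 627, as did Ccnb1, the cyclin of M phase, and Mos, the kinase of the arrest at metaphase. The list's median of -0.77 was near the -0.82 of all genes of at least 10 FPKM.

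Of 15 genes of the spindle checkpoint and kinetochore, 4 were non-overlapping and lower, 3 of them among the 13 of at least 10 FPKM, a share near the 21.1% of all such genes. Mad1l1, which anchors the checkpoint at kinetochores, was at 28.0 and 9.34 against 7.90, 0.229 and 0.714 FPKM (difference -2.71, SE 0.89, unadjusted p 0.0112). Bub1b, Birc5 and Cenpa, the most abundant members, overlapped, and Cenpa, the centromere's histone, had the highest level in the third Aged + LRP1high library, at 540 FPKM.

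Cohesin holds sister chromatids together from fetal life until ovulation, and shugoshin protects it at centromeres. Of 14 members 13 were tested, and 7 were non-overlapping and lower and 0 higher, beside 8.48% of all genes tested. Sgo2a, the shugoshin of meiosis, was at 36.1 and 14.7 against 11.3, 0.406 and 0.0169 FPKM (difference -3.21, SE 1.35, unadjusted p 0.0361). Smc1a, a ring subunit, was at 23.9 and 14.2 against 8.06, 1.10 and 0.755, and Pds5b, a regulator of the ring, at 4.24 and 5.93 against 3.8, 0.0939 and 0.0477 FPKM, with unadjusted p of 0.0414 and 0.0449. Smc3, the partner of the SMC1 proteins, was at 102 and 72.9 against 45.6, 31.8 and 8.88. Wapl, which releases cohesin, lay on the other side in mean, at 18.4 and 65.4 against 117, 41.9 and 448 FPKM, and Rad21 was level at 26.5 and 43.3 against 33.6, 32.9 and 24.5. The meiotic subunits Rec8 and Stag3 were under 1 FPKM in all 5 libraries.

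On TPM and after quantile normalization 5 cohesin members were non-overlapping and lower, and after median ratio scaling 7, beside 6.85%, 5.75% and 6.61% of all genes tested. The list's median difference was -0.91, beside 0 over all genes tested and -0.67 over those with a mean of at least 1 FPKM over the 5 libraries. It was -1.12 on TPM, -0.18 after quantile normalization and -0.68 after median ratio scaling. Among the 5 members of at least 10 FPKM, 2 were lower and the median was -0.87, beside 21.1% and -0.82.

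Maternal messages had mixed positions. Of 8 genes of the subcortical maternal complex, which the early embryo needs, Khdc3 and Nlrp4f were non-overlapping and lower, with Khdc3 at 472 and 1115 against 434, 184 and 7.61 FPKM. Of 18 genes of maternal mRNA storage and decay 3 were lower and 0 higher, but only 1 of the 13 of at least 10 FPKM was lower, beside 21.1% of such genes. Zfp36l2, which marks AU-rich messages for decay, was at 7.63 and 4.39 against 0.535, 0.0517 and 0 FPKM (difference -2.54, SE 0.80, unadjusted p 0.00869). Paip1, a partner of the poly(A)-binding protein, ranged from 1454 to 21623 FPKM within Aged + Unsorted alone, Btg4, the adaptor of maternal mRNA decay, from 1157 to 5075, and Lsm14b, a storage protein, from 382 to 1245. In Paip1 and Btg4 the Aged + Unsorted libraries thus lay farther apart than the means of the groups.

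Of 16 genes that guard chromatin and methylation, Dnmt3l was lower and Npm3 higher, beside 8.48% and 2.06% of all genes tested. Of 18 members of Skp1a and the oocyte Fbxw genes, which form ubiquitin ligases, 4 were lower and 0 higher, all 4 among the 17 of at least 10 FPKM (21.1% and 5.08% of all such genes), with Fbxw28 at 1220 and 1341 against 1199, 578 and 307 FPKM and Skp1a overlapping at 7533 and 2018 against 4318, 14349 and 4087. Of 46 proteasome genes 8 were lower and 0 higher, all 8 among the 37 of at least 10 FPKM, a share near the 21.1% of such genes, and the 3 most abundant, Psma7, Psmc1 and Psmb7, overlapped. Of 49 ubiquitin-specific proteases 46 were tested, 8 lower and 2 higher, 3 and 2 of them among the 20 of at least 10 FPKM, against 21.1% and 5.08%. Usp2, a deubiquitinase of cyclin D1, was the more abundant of the higher pair, at 2.69 and 29.3 against 132, 99.2 and 76.5 FPKM (difference 3.26, SE 1.57, unadjusted p 0.0621).

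**Figure D5:**
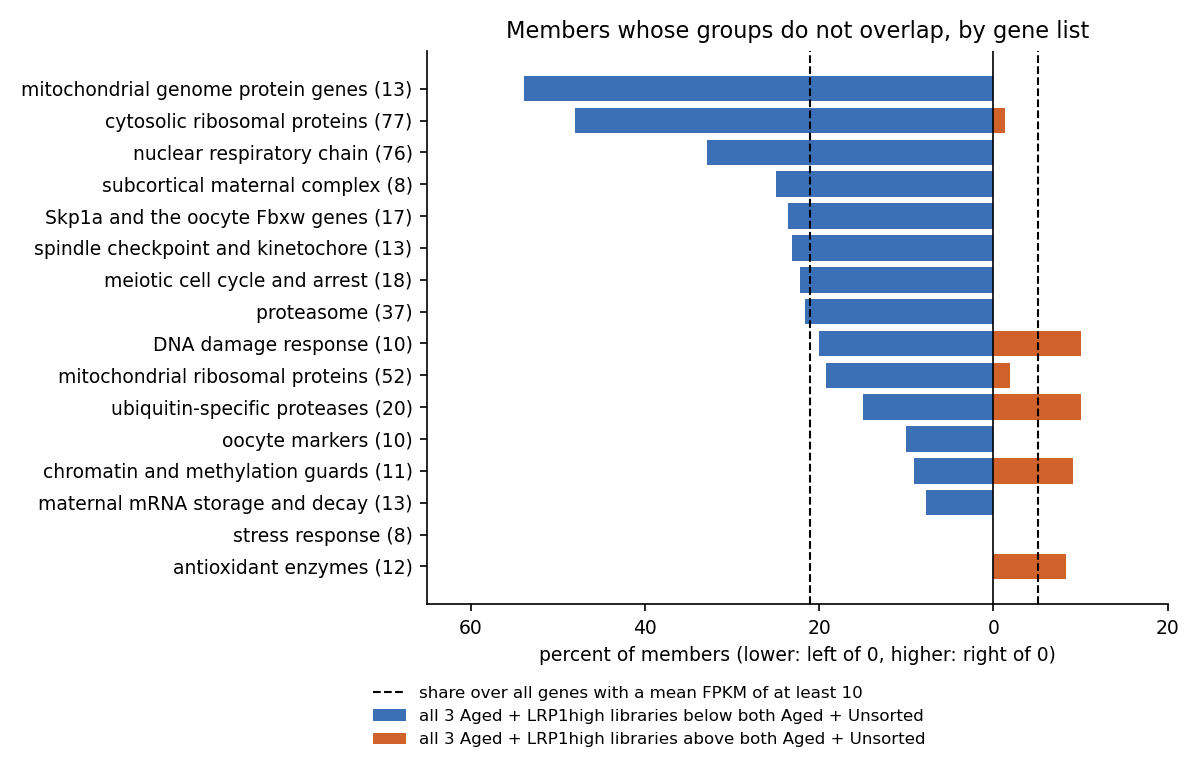
Share of each list's members of at least 10 FPKM that were lower (left) or higher (right) in all 3 Aged + LRP1high libraries, for lists of oocyte function with at least 8 such members (number in parentheses), with the shares over all 4878 genes of that level as dashed lines. Genes of the mitochondrial genome, ribosomal proteins and the respiratory chain extend farthest past the 21.1% line among the lists plotted. The oocyte markers, antioxidant enzymes, stress response, maternal mRNA storage and decay, and chromatin and methylation guards do not reach it. Neither do the ubiquitin-specific proteases, mitochondrial ribosomal proteins and DNA damage response.

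Antioxidant and NAD genes lay on both sides. Sod1, the cytosolic superoxide dismutase, was at 3428 and 5197 against 9899, 12944 and 13185 FPKM (difference 1.5, SE 2.16, unadjusted p 0.503). Every Aged + LRP1high library exceeded both Aged + Unsorted libraries, but Sod1 ranged from 20.8 to 17124 over the Young libraries. The 20.8 FPKM was in Young replicate 1, where Gdf9 was at 2.17 FPKM, and the 17124 in replicate 3, where Gdf9 was at 626. Prdx4, the peroxiredoxin of the endoplasmic reticulum, was at 13.5 and 14.8 against 4.61, 0 and 0 FPKM (difference -3.09, SE 1.32, unadjusted p 0.0389). Of 22 antioxidant genes tested of 23, these were the non-overlapping members, 1 in each direction, beside 2.06% higher and 8.48% lower of all genes tested.

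Of 23 NAD genes tested of 24, 2 were higher and 4 lower, beside 2.06% and 8.48% of all genes tested. Sirt6, an NAD-dependent deacetylase of chromatin, was at 153 and 53.3 against 364, 791 and 1001 FPKM (difference 2.86, SE 1.49, unadjusted p 0.0818). Nadk2, the mitochondrial NAD kinase, was at 1.37 and 1.80 against 9.62, 8.40 and 36.2 FPKM (difference 2.59, SE 0.88, unadjusted p 0.0134). Parp1, which spends NAD at DNA breaks, was at 10.6 and 9.32 against 1.66, 1.93 and 0.272 FPKM (difference -2.35, SE 0.79, unadjusted p 0.0125). None of these genes passed the adjusted test.

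Extracellular matrix genes were low in oocytes of both groups. Of 85 genes with symbols of collagens, laminins and integrins, 75 were tested, 3 were non-overlapping and higher and 4 lower, beside 2.06% and 8.48% of all genes tested, and the median difference was 0.02. Col22a1, described above, led the higher members. Col25a1, a transmembrane collagen, was at 4.58 and 6.83 against 4.54, 0.201 and 0.0222 FPKM, and Itgae, an integrin known from lymphocytes, at 3.64 and 1.58 against 0, 0.123 and 0. Itga6 and Lamb1, the integrin and laminin most abundant here, overlapped at 45.0 and 73.4 against 77.1, 0.506 and 6.41, and at 39.5 and 102 against 89.4, 74.4 and 14.2 FPKM. Of 33 matrix proteases and inhibitors tested of 45, 1 was higher and 0 lower.

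Of 25 genes of the DNA damage response, 5 were lower and 1 higher. Xrcc6, the Ku subunit that binds broken ends, was the higher one at 10.9 and 17.0 against 21.2, 45.1 and 189 FPKM. Of 11 mTOR genes 2 were lower and 1 higher, Deptor, an inhibitor of mTOR, at 2.70 and 8.50 against 15, 16.8 and 13.6 FPKM. Of 13 tested BCL2 family genes 2 were lower and 1 higher, with Bcl2l10, the oocyte's abundant survival member, at 1704 and 1846 against 1141, 1383 and 310 FPKM. Of 17 tested stress genes Fos alone was non-overlapping, under 1 FPKM in every library. Of 11 tested genes of the LDL receptor family none was, and mouse Lrp1 itself was at 0.221 and 1.18 against 0.107, 0.411 and 5.99 FPKM. The lower members were 18.2% of the mTOR and 15.4% of the BCL2 family genes tested and 5 of the 25 DNA damage genes. These stand beside 8.48% of all genes and 15.1% of genes of 1 to 10 FPKM, and the single higher members beside 2.06% and 1.67%. Each share rests on 5 genes or fewer. Among members of at least 10 FPKM, 2 of 10 DNA damage, 0 of 3 mTOR and 1 of 2 BCL2 family genes were lower. At that level 1, 1 and 0 were higher, beside 21.1% lower and 5.08% higher of all such genes.

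Genes that the study names for its oocytes were mostly low in both transplanted groups. Of 11 such genes analysed here, 4 were non-overlapping and lower and 0 higher, beside 8.48% and 2.06% of all genes tested, but the study chose them on these libraries. Bfar, a ubiquitin ligase that restrains cell death, was at 44.6 and 15.4 against 5.04, 7.86 and 3.59 FPKM (difference -2.13, SE 0.89, unadjusted p 0.0362). Rnf41, a ubiquitin ligase of receptor turnover, was at 3.11 and 5.82 against 0.945, 0.126 and 0.273 FPKM (difference -1.91, SE 0.73, unadjusted p 0.0238). Rptor, the scaffold of mTOR complex 1, was at 3.03 and 0.867 against 0.449, 0.279 and 0.0999, and Nmnat3, an NAD-synthesizing enzyme, at 0.255 and 1.60 against 0, 0.0556 and 0.190 FPKM. In Bfar and Rnf41 the Aged libraries, at 40.7 and 16.9 and at 11.7 and 11.2 FPKM, were level with or above Aged + Unsorted.

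Lama5, a laminin chain, overlapped at 4.17 and 9.87 against 4.97, 0.414 and 0.228 FPKM. Usp10, a deubiquitinase, overlapped at 8.07 and 28.8 against 23.2, 14.2 and 1.33, and Smarcad1, a chromatin remodeller, at 4.14 and 17.0 against 4.59, 1.58 and 0.197. Utrn, Tiprl, Usp21 and Trim2 overlapped as well, with differences from -1.17 to 0.21. Of the study's list of aging genes, which the paper drew from its Young and Aged oocytes, 569 were analysed here. Of these, 103 were non-overlapping and lower and 10 higher, beside 8.48% and 2.06% of all genes tested and 15.1% and 1.67% of genes of 1 to 10 FPKM. Among the 106 members of at least 10 FPKM, 35 were lower and 2 higher, beside 21.1% and 5.08%. At an unadjusted p under 0.05 by limma, 51 of the 569 were lower and 0 higher, beside 2.55% and 0.243% of all genes tested. The non-overlapping lower genes of this list numbered 57 of 569 after quantile normalization, beside 5.75% of all genes tested under that setting. Without Aged + Unsorted replicate 1 the list had 261 such genes of 569, beside 27.6% of all genes tested.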

How the data were processed

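RNA of 12 mouse oocyte libraries in 5 groups, taken from the labels, was analysed here; granulosa cell libraries were not used. Per the labels, the authors aligned reads with HISAT2 2.2.1 and quantified genes with StringTie 1.3.3b. They deposited, for 55335 gene identifiers, FPKM (fragments scaled by gene length and library total), TPM (scaled to the same sum per library) and coverage (mean read depth, a signal). The labels name build mm9, but the coordinates of 54577 identifiers equal those of GENCODE M21 on GRCm38, which is the build printed. The labels name a stranded kit and polyA RNA, and the methods name Smart-seq2. Identifiers that occur more than once in a file (3 to 14 per library) were summed. Depth was taken from coverage divided by FPKM, as the median over 21693 single-exon genes; 1 read of 150 bases on 1 kilobase corresponds to 0.0477 to 0.152 FPKM in the 5 libraries. No counts were used.

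Genes with a mean of at least 1 FPKM over the 12 libraries were fitted on log2(FPKM + 1) with limma 3.58.1 (lmFit, eBayes; R 4.3.3), all 5 groups sharing the spread, with Benjamini-Hochberg adjustment. The fit was tested on simulated data. Unadjusted p-values come from the same limma fit. Named genes were up to 10 per direction with the largest difference among protein-coding genes with an unadjusted p under 0.05, no overlap and a mean of at least 10 FPKM, the study's oocyte genes, and of each list the members with an unadjusted p under 0.05 and no overlap and the 3 most abundant. Names given where a count is 5 or fewer, rRNA genes and printed promoters were chosen after values were seen. Lists were taken by symbol, so the collagen, laminin and integrin list also holds Itgb1bp1. The 33 lists also held 328 vomeronasal receptors (77 tested, 3 higher and 2 lower) and 1108 olfactory receptors (362 tested, 5 higher and 4 lower), which oocytes should lack. The members and lists were chosen with earlier results of these data known. Genes on chromosome 18, 11 of them members of the lists taken by symbol, are not reported. Alternatives were other scales, filters, models and leaving out libraries.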

Additional observations from a re-analysis of the deposited data

How the results depend on the processing

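The 2 groups hold 3 and 2 libraries of unequal depth, and the spread was shared with other libraries, most of them low in Gdf9. A missing call thus does not show that genes were alike. No gene was called on TPM, after quantile normalization or median ratio scaling, with a pseudocount of 0.1, without the filter, with stricter filters, in the 9 libraries of aged mice, with a trended robust prior or with the replicate block. With only the 2 groups in the model, 2 genes were called lower, Sapcd1 and Krtap4-6. With array weights, 1 was called higher, Slc39a1, and 22 lower, Slc23a3, mt-Rnr1, mt-Rnr2 and CT010467.1 among them. Leaving out 1 library gave 0 to 98 lower and 0 higher calls, and the 98 came without Aged + Unsorted replicate 2, where 87 were under 1 FPKM in that library.

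The counts at an unadjusted p under 0.05 moved more, from 68 higher and 713 lower. They were 139 and 263 after quantile normalization, 41 and 90 after median ratio scaling, 44 and 437 with a pseudocount of 0.1, 16 and 97 at a mean of at least 10 FPKM, and 41 and 450 with the filter over the 5 libraries. They were 131 and 621 with only the 2 groups, 173 and 765 in the 9 libraries of aged mice, 42 and 681 with the trended robust prior and 235 and 1502 with array weights. Of 2 settings added after seeing the data, the 2 groups with the filter over 5 libraries gave 48 and 412, and the fit without the Aged + LRP1low libraries 39 and 508. Leaving out 1 library gave 17 to 176 higher and 245 to 1263 lower: 17 and 423 without Aged + Unsorted replicate 1, 176 and 907 without replicate 2, 71 and 1263 without Aged + LRP1high replicate 1, 91 and 475 without replicate 2, and 107 and 245 without replicate 3. The cause was not tested.

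With the replicate number as a block, 28 were higher and 665 lower. Same-numbered libraries did not deviate together (correlation -0.364 for replicate 1 and -0.0385 for replicate 2), so they share only a number. The 45 named genes followed kept their direction in all 838 values under the 19 settings, and 7 of those values were called. All 45 had groups that do not overlap, so leaving out a library could not reverse them. Settings that change only the filter or the prior leave a difference unchanged. The kept direction thus largely follows from how the genes were chosen.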
